A study of Mus musculus with 6 samples.

Results

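Respiratory complex I was followed here through the 45 nuclear genes whose symbols begin with Nduf, out of 25785 gene names in the expression table. For each gene the transcript row with the highest mean over the 6 libraries was kept, which left 45 of 56 rows, and the choice used no difference between genotypes. By name, 11 genes fall into a core class (Ndufs and Ndufv), 27 into an accessory class (Ndufa, Ndufb and Ndufc) and 7 into an assembly class (Ndufaf). RNA-seq was run on whole hippocampus of mice of strain C57B1/6J, as the labels spell it, at postnatal day 30. There were 3 wild-type libraries and 3 libraries labelled PTCHD1 mutant. The labels give neither the altered part of the gene nor the sex and litter of the animals, and they do not say that each library came from its own animal. The p-values below therefore measure the spread between these libraries. Replicate numbers follow the order of deposition and pair nothing.

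Complex I is the entry point of the mitochondrial respiratory chain. It passes electrons from NADH through a flavin and a row of iron-sulfur clusters to ubiquinone, and it uses the energy released to pump protons across the inner membrane. Its matrix arm holds an NADH-oxidizing N module and a ubiquinone-reducing Q module, and its membrane arm has a proximal and a distal part. Accessory subunits surround a conserved catalytic core. Assembly factors join the modules and are absent from the finished enzyme. Neurons depend heavily on this chain for their ATP. Core subunits of the membrane arm are made from the mitochondrial genome, and the table holds 0 rows with mitochondrial gene symbols, so all values concern the nuclear-encoded genes.

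Levels are given as normalized read equivalents, the deposited normalized coverage divided by a read length of 42 bases that was read from the values. Before normalization the kept rows, with a single row per gene name, summed to 12450701 to 23749087 read equivalents per library. Sequence shared between rows can enter this sum more than once, so it is not the sequencing depth. Between 7.98 and 5112 unnormalized read equivalents stood behind a member in a library, and all 45 members passed the minimum mean of 10. Ptchd1, which encodes a patched-domain membrane protein, was listed at 323, 389 and 411 in wild-type libraries 1, 2 and 3, and at 181, 150.03 and 129.97 in mutant libraries 1, 2 and 3. It fell by 1.28 on the log2 scale (limma, Benjamini-Hochberg adjusted p = 0.0342). It was the only gene of 15717 tested that passed the adjusted threshold of 0.05.

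Promoters of 39 of the 45 members were matched by symbol in RefSeq (GRCm38.p6), each from 250 bases before to 50 after the start site. The promoters of 4 members whose values did not overlap between genotypes are shown 5' to 3'. Ndufa13 had the smallest p-value, and Ndufaf5, Ndufs3 and Ndufs4 each hold 1 of the other motifs searched. Capitals mark matches, on either strand, to GCGCATGC (NRF1, a regulator of respiratory-chain genes), CCGGAAG (GABPA and other ETS factors), AAGATGGC (YY1) or CCAAT (the CCAAT box).
Ndufa13 (chr8:69901971-69902270, minus strand): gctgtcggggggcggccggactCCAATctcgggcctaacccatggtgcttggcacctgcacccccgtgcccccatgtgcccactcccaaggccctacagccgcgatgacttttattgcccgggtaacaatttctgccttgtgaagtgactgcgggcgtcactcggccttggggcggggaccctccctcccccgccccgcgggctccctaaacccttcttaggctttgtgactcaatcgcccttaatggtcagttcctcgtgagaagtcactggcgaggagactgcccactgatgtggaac
Ndufaf5 (chr2:140170396-140170695, plus strand): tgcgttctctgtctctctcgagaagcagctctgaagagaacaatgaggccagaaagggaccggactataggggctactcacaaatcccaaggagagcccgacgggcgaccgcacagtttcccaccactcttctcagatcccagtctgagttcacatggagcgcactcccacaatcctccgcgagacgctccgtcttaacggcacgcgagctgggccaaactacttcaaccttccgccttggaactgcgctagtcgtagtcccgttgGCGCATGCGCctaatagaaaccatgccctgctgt
Ndufs3 (chr2:90904672-90904971, minus strand): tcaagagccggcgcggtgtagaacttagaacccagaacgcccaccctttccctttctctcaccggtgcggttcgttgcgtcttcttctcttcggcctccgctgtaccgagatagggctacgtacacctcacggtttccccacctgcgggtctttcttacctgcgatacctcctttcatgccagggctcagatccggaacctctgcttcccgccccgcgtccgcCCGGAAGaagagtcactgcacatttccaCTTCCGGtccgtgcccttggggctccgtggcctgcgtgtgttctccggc
Ndufs4 (chr13:114388045-114388344, minus strand): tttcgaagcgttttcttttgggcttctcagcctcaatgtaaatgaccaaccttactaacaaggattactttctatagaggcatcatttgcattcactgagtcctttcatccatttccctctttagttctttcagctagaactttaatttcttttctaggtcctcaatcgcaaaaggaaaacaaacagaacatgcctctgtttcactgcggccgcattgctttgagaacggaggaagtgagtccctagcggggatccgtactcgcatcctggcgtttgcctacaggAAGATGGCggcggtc
In Ndufaf5 the NRF1 letters match on both strands, and the pair of matches overlaps. The NRF1 letters were found in 5 of 39 member promoters (12.8%), against 5.53% of the 11417 genes tested that have a promoter entry. For the ETS letters the shares were 12.8% and 17.5%, and for the CCAAT box they were 33.3% and 42.3%. The YY1 letters were in 7 of 39 (17.9%) against 4.74%. All 7 of these matches lay on the gene's strand, with the first base 23 to 39 bases into the transcript, counting the start site as 1. In all 7 the ATG inside the match was an annotated start codon in GENCODE M21, so the letters also belong to the start of the reading frame. The median log2 change, mutant minus wild type, was -0.19 in the 5 members with the NRF1 letters and -0.21 in the 34 without. It was -0.09 in the 7 with the YY1 letters and -0.23 in the 32 without. A match is a description of letters and shows no binding.

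Most complex I genes had lower values in the mutant hippocampus, by small amounts. The log2 change was negative in 42 of 45 members, against 53.2% of all genes tested. The median was -0.21, with all genes at -0.02, and the members ranged from -0.60 in Ndufb6 to 0.07 in Ndufa8. Mutant means stood at 67.5% to 106% of wild-type means, with a median of 86.8%. All 3 mutant values lay below all 3 wild-type values in 18 of 45 members, against 12% of all genes, and above them in 0 members, against 12.3% of all genes. No member passed the limma test across all genes (0 of 45 lower and 0 higher, with 0.00636% and 0.0% of all genes called). The smallest adjusted p among members was 0.109 (limma, Benjamini-Hochberg). At an unadjusted limma p under 0.05, 17 members were lower and 0 higher, against 9.7% and 9.01% of all genes. An exact permutation test of 3 against 3 libraries cannot give a p below 0.1. In bulk tissue, fewer cells of a type and less RNA per cell cannot be told apart.

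**Figure D1:**
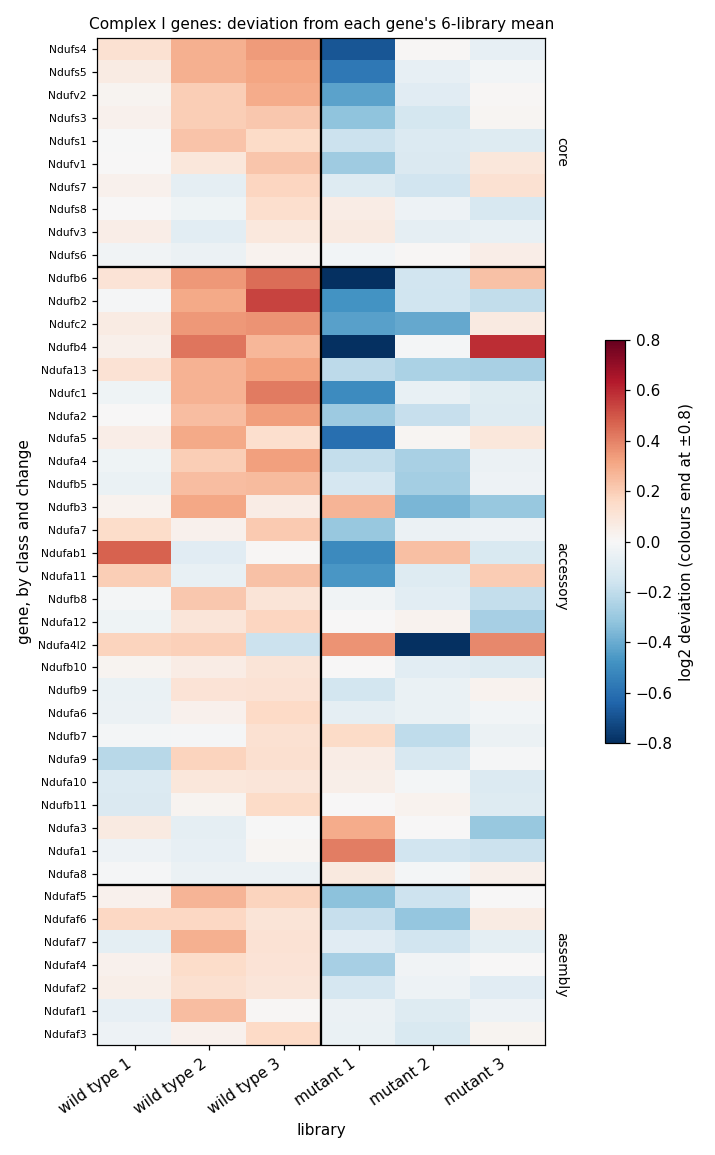
Log2 deviation of 44 of the genes from each gene's own mean over the 6 libraries (rows: genes by class and change; columns: libraries; colours end at 0.8 on either side). The wild-type columns 2 and 3 are mostly red and the mutant columns 1 and 2 mostly blue, while mutant 3 is mixed. The blue end of the scale is reached in mutant 1 (Ndufb6 and Ndufb4) and in mutant 2 (Ndufa4l2). Mutant 1 also holds some red cells, among them Ndufa1 and Ndufa3.

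**Figure D2:**
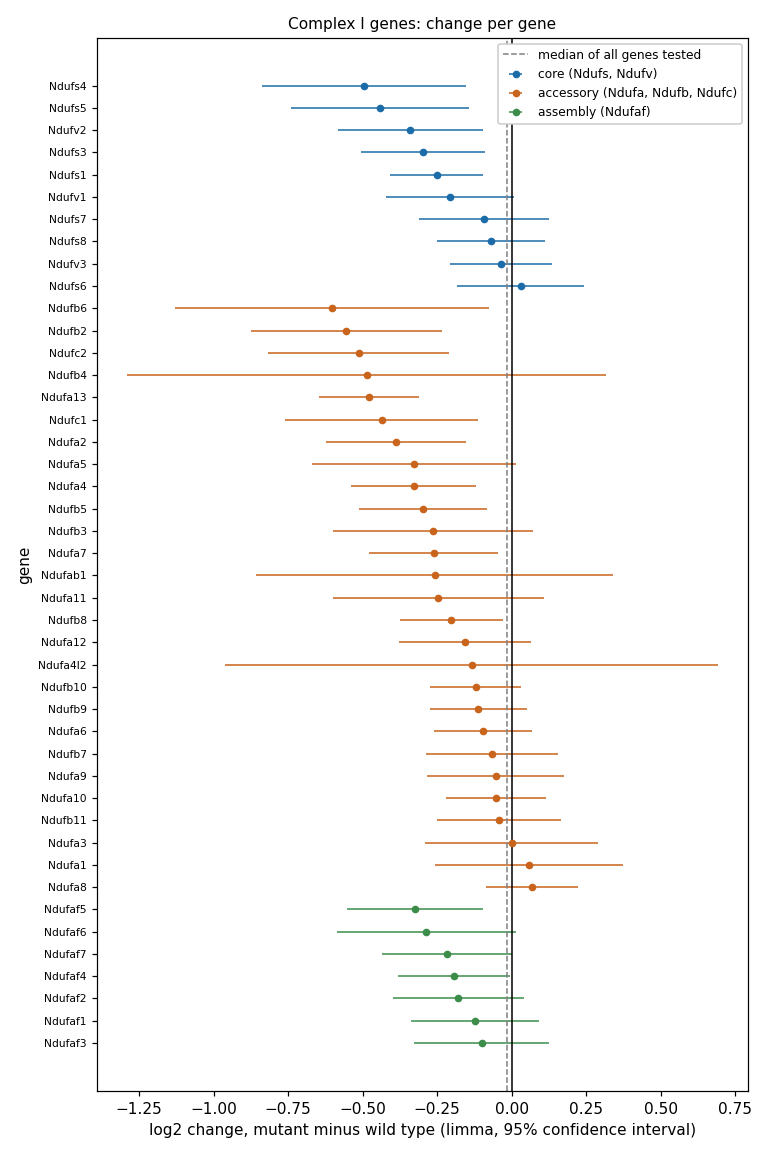
Log2 change, mutant minus wild type, with the 95% confidence interval of limma for 44 of the genes (points; colours give the class; dashed line: median of all genes tested). Points lie left of 0 for 41 of 44 genes, and 17 unadjusted intervals exclude 0.

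The core class covers the redox centres and some subunits that are accessory by function. Its median log2 change was -0.21, with 10 of 11 genes negative and 5 of 11 without overlap between genotypes, all lower (12% of all genes). After the correction for GC content and length, 2 were lower and 1 higher without overlap, against 7.18% and 12.5% of all genes. Ndufs1, the large subunit that carries iron-sulfur clusters of the N module, was listed at 3309.6, 3879 and 3690.1 in the wild type. Its mutant values were 2946, 3078 and 3089. The mutant values lay close together and all below the wild type, with a log2 change of -0.25 ± 0.070 (SE) and an adjusted p of 0.131 (limma, Benjamini-Hochberg). Ndufs4, an accessory N-module subunit whose loss in mice gives a Leigh-like encephalopathy, had 844, 944 and 981 in the wild type against 482, 781 and 740.3 in the mutant. The groups were separate, and mutant library 1 stood far below the other two mutant libraries. The log2 change was -0.50 ± 0.155, and -0.28 without that library. Ndufs5, a membrane-arm subunit on the intermembrane-space side, had 761, 888 and 906 against 489.7, 694 and 716. Again mutant library 1 was lowest and the groups did not overlap (log2 change -0.44, limma adjusted p = 0.145); without that library the change was -0.27.

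Among the 7 conserved core subunits the change was negative in 7 of 7, with a median of -0.21. Ndufv2, an iron-sulfur subunit next to the flavin site, had a log2 change of -0.34, and Ndufs3 of the Q module had -0.30. Both were without overlap. Ndufv1, which holds the flavin, had -0.21, with overlap. Without mutant library 1 the change was -0.21 for Ndufv2 and -0.12 for Ndufv1. Ndufs7 and Ndufs8, which carry the last iron-sulfur clusters before ubiquinone, had -0.09 and -0.07, with overlap. At the upper end of the class, Ndufs6, a zinc-binding accessory subunit, had 235, 231 and 245 in the wild type and 236, 241 and 248 in the mutant. Its groups overlapped, with a log2 change of 0.03. Ndufv3 had 1009.7, 917 and 1029 against 1022, 925 and 934, a log2 change of -0.04 with overlap.

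Accessory genes showed the widest range. Their median log2 change was -0.25, with 25 of 27 negative and 8 of 27 lower without overlap (12% of all genes). After the correction for GC content and length, 2 of 27 were lower and 1 higher without overlap, against 7.18% and 12.5% of all genes. Ndufa13 (also called GRIM-19), a subunit that spans matrix and membrane arm, had the smallest p-value of all members. Wild-type values were 1036, 1158 and 1192, and mutant values were 825, 801 and 798. The mutant libraries differed by less than the gap to the lowest wild-type library. Its log2 change was -0.48 ± 0.075 (SE; 95% interval -0.65 to -0.31; limma, Benjamini-Hochberg adjusted p = 0.109). Ndufa2, a thioredoxin-like N-module subunit, had 401, 476 and 507 against 327, 353 and 373. Its groups were separate, with a log2 change of -0.39 and a limma adjusted p of 0.129.

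Ndufb2, a small subunit of the distal membrane arm, had 291, 361 and 426 in the wild type and 209.8, 262 and 256 in the mutant. Wild-type library 3 was the highest and the groups did not overlap (log2 change -0.56 ± 0.145, limma adjusted p = 0.124). Ndufc2, of the proximal membrane arm, had 573, 698 and 703 against 405, 413 and 576. Mutant library 3 reached just above wild-type library 1, so the groups overlapped (log2 change -0.51, limma adjusted p = 0.127). Without mutant library 3 the change was -0.68 and the adjusted p 0.0477 (limma, Benjamini-Hochberg), in a fit that called 0.146% of all genes lower. Over 19 settings of the limma fit its adjusted p ranged from 0.032 to 0.406.

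Ndufb6, a distal membrane-arm subunit, had the most negative change, -0.60 ± 0.239. Its wild-type values were 541, 638 and 683 and its mutant values 253, 451 and 589, so that the groups overlapped and mutant library 1 was the lowest. Without that library the change was -0.26. Ndufb4, a neighbour in the distal arm, was even more uneven, with 153, 200.4 and 179 against 59.6, 148 and 225. Its log2 change was -0.49 with all libraries and 0.04 without mutant library 1. Ndufb4 falls outside the rule for named genes and was picked after its values were seen.

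At the other end of the accessory class, Ndufa8, a subunit on the intermembrane-space side, had 764, 744.1 and 743.9 in the wild type and 809.9, 761 and 789 in the mutant. The groups overlapped slightly, with a log2 change of 0.07 ± 0.070. Ndufa1, an X-linked subunit of the proximal arm, had 364, 358 and 378 against 497, 337 and 331. Only mutant library 1 was above the wild type. The log2 change of 0.06 became -0.13 without that library. Ndufa4, whose protein is now placed in human complex IV in spite of its name, had 1695, 1990.35 and 2179.7 against 1522, 1452 and 1679. The groups were just separate, with a log2 change of -0.33 and a limma adjusted p of 0.136.

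**Figure D3:**
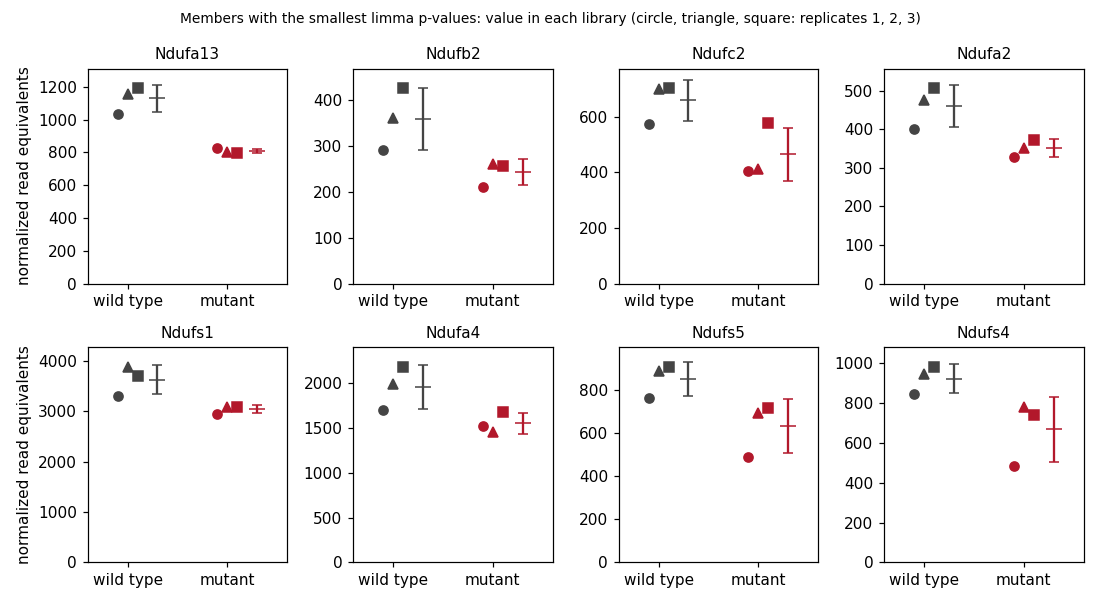
Normalized read equivalents in each library for the 8 members with the smallest limma p-values (circle, triangle and square: replicates 1, 2 and 3; bars: mean ± SD of 3 libraries; axes start at 0). Groups are separate in all of these except Ndufc2. Mutant 1 is the lowest point in all but Ndufa13 and Ndufa4, at 482 for Ndufs4 and 489.7 for Ndufs5.

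The assembly factors were negative in 7 of 7, with a median of -0.19 and a narrow range from -0.33 to -0.10. In 5 of 7 the groups did not overlap, against 12% of all genes lower without overlap. After the GC and length correction 5 of 7 were negative, against 48.5% of all genes. Then 0 of 7 were without overlap, against 7.18% of all genes lower and 12.5% higher. Ndufaf5, which in human cells modifies an arginine of the Q-module core, had 547, 643 and 605 in the wild type and 424, 476 and 535 in the mutant. All mutant values were lower (log2 change -0.33 ± 0.103, limma adjusted p = 0.150). Ndufaf6, needed early in assembly, had 141.8, 141.9 and 135.8 against 111, 102 and 133, with the closest values 133 and 135.8. Its log2 change was -0.29. Ndufaf1, a partner of Ecsit in the assembly of the membrane arm, had 422, 526 and 445 against 429, 413 and 431, with overlap and a change of -0.12. Ndufaf3, which acts on the early Q module, had 245, 258 and 281 against 243, 231 and 256, also with overlap, and a change of -0.10.

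Assembly factors without an Nduf name gave the same direction in most cases. Of 12 listed, 8 were in the table, 7 were negative, and the median was -0.18. None of them passed the adjusted threshold, and at an unadjusted p under 0.05 there was 1 lower and 1 higher, close to the 9.7% and 9.01% of all genes. Tmem126b, a membrane factor of the Ndufaf1 assembly complex, had 226, 282 and 237 in the wild type and 113, 188 and 206 in the mutant (log2 change -0.59, limma adjusted p = 0.164). Ecsit, its partner there, had 455, 443 and 454 against 556, 491 and 496 (log2 change 0.19, limma adjusted p = 0.261). In neither gene did the groups overlap. Of the 8, 1 was thus lower and 1 higher without overlap, close to the 12% and 12.3% of all genes. After the GC and length correction 6 of the 8 were negative, against 48.5% of all genes, with a median of -0.11.

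The 3 name classes thus had medians of -0.21 (core), -0.25 (accessory) and -0.19 (assembly). By position in the enzyme, the N module had a median of -0.25 (8 of 9 negative), the proximal membrane arm -0.25 (7 of 9) and the distal membrane arm -0.26 (11 of 11). The Q module had -0.09 (7 of 7), and 5 of its 7 genes lay within 0.1 of no change, the exceptions being Ndufs3 and Ndufa5. Differences between classes or modules were not tested, since genes are not replicates. Complexes II to V, 38 genes tested, had a median of -0.17 with 33 negative. By complex the medians were -0.15 (II), -0.24 (III), -0.10 (IV) and -0.18 (V). Corrected for GC content and length, the medians were -0.14 (N module), -0.06 (Q module), -0.13 (proximal arm) and -0.10 (distal arm). For complexes II to V together the corrected median was -0.09. Singly the corrected medians were -0.12 (II), -0.03 (III), -0.01 (IV) and -0.12 (V).

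Levels between genes are given per kilobase of transcript. A gene's place depends on the transcript model used and on sequence it shares with other genes, described below. In the wild type the highest was Ndufa4 with 3205 ± 401 normalized read equivalents per kb (SD, n = 3), followed by Ndufb9 with 2817, Ndufv2 with 2789 and Ndufb8 with 2547. Neighbours among these 4 overlapped in their library values, and all of them lay above the fifth, Ndufa6, with 1684. From the eighth gene, Ndufb10 (1367), down to the thirtieth, Ndufs8 (751), every neighbour overlapped the next. The median was 992 for the core, 969.7 for the accessory and 314 for the assembly class. Assembly factors lay between 129 and 513 and took places 33 to 43 of 45, interleaved with Ndufa11, Ndufb11, Ndufs6 and Ndufb4. The lowest were Ndufa4l2, a paralogue of Ndufa4, with 19.4 and Ndufab1, the mitochondrial acyl carrier protein, with 8.47. The transcript model used for Ndufab1 is 3479 bases long.

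**Figure D4:**
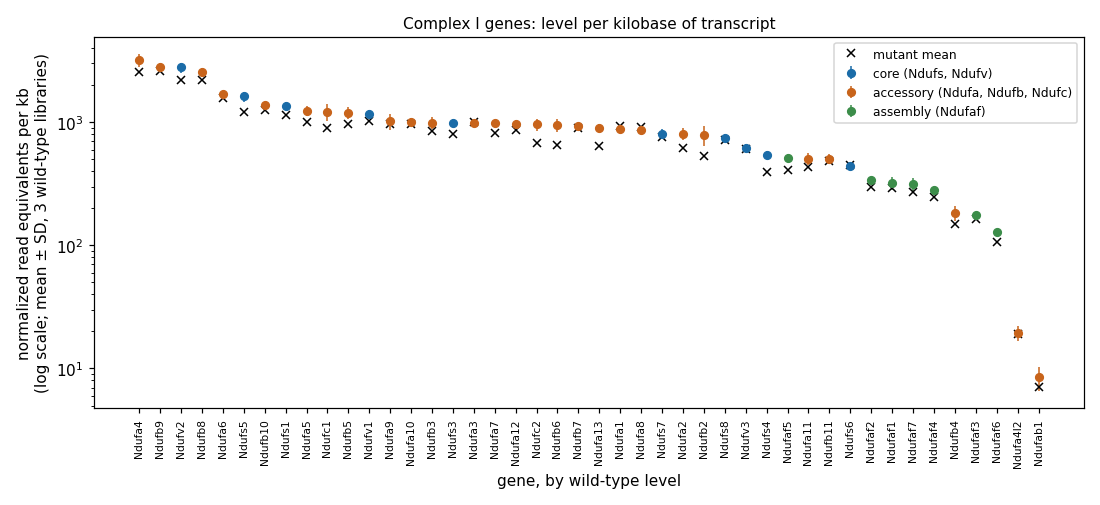
Wild-type level of 44 of the genes in normalized read equivalents per kb of transcript (log axis; points: mean, bars: SD over 3 libraries; crosses: mutant mean), ordered by level. Assembly factors sit to the right, between 129 and 513, and crosses are below the points for most genes.

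The members' values were not spread evenly over the libraries. Averaged over the 45 genes, the log2 deviation from each gene's mean was 0.02, 0.14 and 0.17 in wild-type libraries 1, 2 and 3, and -0.19, -0.12 and -0.03 in mutant libraries 1, 2 and 3. The groups were ordered, with wild-type 1 and mutant 3 next to each other. After the GC and length correction given with base composition, the deviations were -0.04, 0.10 and 0.09 in the wild type and -0.08, -0.05 and -0.02 in the mutant, so that wild-type 1 lay among the mutant libraries. The members' summed level, without that correction, was 38353, 42895 and 43537 in the wild type. In the mutant it was 35029.6, 35759.9 and 37231, below all wild-type sums. Mutant library 1 was the lowest of the 6 in 21 of 45 members, against 28.8% of all genes, and wild-type library 3 the highest in 25 of 45, against 12.8%.

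These libraries also differed in base composition. Over the 15432 genes with a known transcript, the deviation of wild-type library 2 had a Spearman rho of -0.48 with GC content, and that of mutant library 1 had 0.43; the other 4 lay between -0.18 and 0.08. Across all these genes the log2 change itself had a rho of 0.36 with GC content, and across the 45 members 0.31. In the 15 members of highest GC content (54.4% to 60.7%) the median change was -0.11. In the 15 of middle and the 15 of lowest GC content it was -0.30 and -0.26. Members were also short, with a median transcript of 875 bases against 2962.5. With transcript length, over all genes, the deviation had a rho of -0.25 in wild-type library 3 and 0.23 in mutant library 2, and the log2 change a rho of 0.20; across the 45 members the change had 0.05.

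After a correction of each library for GC content and length, the members' median change was -0.11 (all genes 0.01) and 34 of 45 were negative, against 48.5% of all genes. The groups were then separate and lower in 4 members, against 7.18% of all genes, and higher in 2, against 12.5%. The 4 were Ndufa13, Ndufa2, Ndufs1 and Ndufs4, and the 2 were Ndufa8 and Ndufs6. At an unadjusted limma p under 0.05, 8 members were lower and 0 higher, against 5.75% and 8.95%. No member passed the adjusted threshold in either direction, against 0.00636% and 0.0127% of all genes. Ndufa13, itself of high GC content (60.4%), kept a change of -0.52 (limma, Benjamini-Hochberg adjusted p = 0.0773), whereas Ndufa4 had -0.04. Corrected class medians were -0.14 (core), -0.10 (accessory) and -0.11 (assembly). With mutant library 1 and wild-type library 2, which had the strongest GC trends, left out, the median was -0.18, and 1 member, Ndufa13, passed the adjusted threshold (log2 change -0.47, limma adjusted p = 0.0215), in a fit that called 0.585% of all genes lower. Over the 19 limma settings its adjusted p ranged from 0.0171 to 0.406. The part that base composition has in the members' change was not tested beyond these values.

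**Figure D5:**
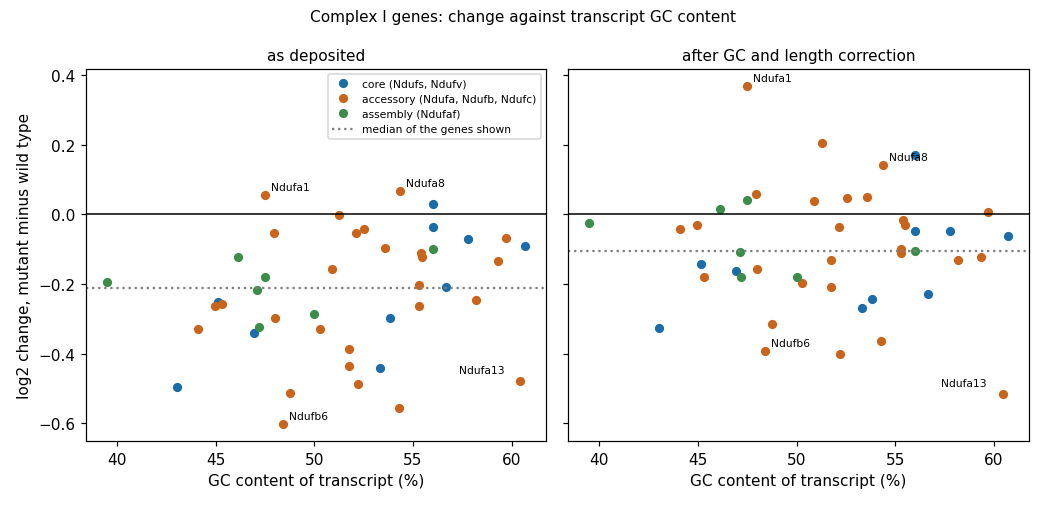
Log2 change, mutant minus wild type, of 44 of the genes against the GC content of the transcript in percent, as deposited (left) and after the GC and length correction (right); colours give the class, dotted lines the median of the genes shown. The median moves from -0.21 to -0.11, and Ndufa13 stays near the bottom in both panels.

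Some members share sequence with other annotated genes, which bears on their counts. Of 45 members, 24 share at least 1 stretch of 42 bases with another gene, and 9 share over 20% of their stretches. For Ndufs5 the share was 43.8%, and the row of the pseudogene BC002163 was listed at 761, 888 and 905 in the wild type and 489, 694 and 715 in the mutant, almost the values of Ndufs5 itself. The deposited values of this pair do not separate the genes. Ndufa13 shares 30.3% of its stretches, in part with Tssk6, which lies on the opposite strand and was listed at 6.20 to 12.6 in the 6 libraries, far under Ndufa13. Ndufs3 shares 45.3% with other genes, among them the processed pseudogene Gm12251, and Ndufb4 shares 37.5%, in part with the pseudogene Ndufb4c. Without the 9 genes, a choice made after seeing the data, 33 of 36 members were negative, against 53.2% of all genes. The median of the 36 was -0.20, and 14 of them were lower without overlap, against 12% of all genes. Where a gene had several transcript rows, as in 6 members, the rows of each gene had the same direction.

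The 11 hippocampal neuron markers were all present, with a median log2 change of -0.08. Markers of several cell types differed between genotypes or single libraries, and none was at 0 in all 6. Of 12 neuron markers, 11 had a positive change, with a median of 0.13, and 7 were higher without overlap (12.3% of all genes). Their summed level was 142681 to 149243 in the wild type and 156765 to 166998 in the mutant. Of 11 oligodendrocyte markers 10 were negative, with a median of -0.22, and their summed level was 77376 to 89189.9 against 64166 to 81102, lowest in mutant library 1. All 12 choroid plexus markers were negative, with a median of -2.24. Their sum was 86362 and 34059.7 in wild-type libraries 1 and 3, and 4733 to 6630.05 in the other 4 libraries. Astrocyte and microglia markers had medians of -0.05 and -0.04, and endothelial and mural markers of 0.05 and -0.04. Corrected for GC content and length, the medians were 0.16 (neuron), -0.12 (oligodendrocyte) and -2.15 (choroid plexus). Without wild-type libraries 1 and 3 the complex I median was -0.24 with 38 of 45 negative, but that leaves 1 wild-type library, number 2, the one with the strongest GC trend. The part of the choroid plexus, oligodendrocyte and neuron values in the complex I result was not tested.

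The authors' deposited p-values gave more calls. Adjusted over the same 15717 genes, they called 12 of 45 members lower and 0 higher, against 3.23% and 4.57% of all genes. These were Ndufa13, Ndufa2, Ndufa4, Ndufb2, Ndufb5, Ndufc1 and Ndufc2 in the accessory class, Ndufs1, Ndufs3, Ndufs5 and Ndufv2 in the core, and Ndufaf5. With library quality weights in limma, 9 members were lower at an adjusted p under 0.05, against 2.18% of all genes. They were Ndufa13, Ndufa2, Ndufa4, Ndufb2, Ndufb5, Ndufc2, Ndufs1, Ndufs5 and Ndufv2, all among the 12. The weights were estimated from these same libraries and ran from 0.40 in mutant library 1 to 2.16 in wild-type library 3. In the authors' deposited table of ontology terms for lower genes, the term for respiratory chain complex I held 13 genes, 12 of them members, with a fold enrichment of 9.97. The authors' deposited term for complex I assembly held 2 genes, Ndufaf5 and Ndufs5, with a fold of 3.70 (authors' enrichment p = 0.10, uncorrected). In the authors' deposited table for higher genes, 0 members appeared under any term. Their deposited table of motifs for lower genes listed GABPA at rank 1 with a fold of 2.38, with Ndufb5, Ndufs1 and Ndufs3 among its 94 genes. NRF-1 was at rank 2 in the authors' deposited table with a fold of 1.94, and Ndufb8 and Ndufs5 were among its 115 genes. YY1, at rank 4 there, held 0 members. In the authors' deposited motif table for higher genes, which held 0 members, NRF-1 had a fold of 1.49 with 115 genes and YY1 a fold of 2.27 with 68 genes. These lists were made from the same 6 libraries and are not independent of the values above.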

How the data were processed

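RNA-seq of whole hippocampus gave 6 libraries, 3 per genotype. Per the labels' protocols, ribosomal RNA was removed from 2000 ng of total RNA, second strands were marked with dUTP-type nucleotides, and 4 libraries shared a lane; lanes are not named, so their part was not tested. Per the submitters' processing notes, the authors used GSNAP, DESeq2 and mm9; no source used here gives versions or how reads were counted. The deposited values are a normalized signal with no stated unit: each library's values were whole multiples of its own step (within 0.01 of a step), and low values peaked at 42 steps, so they were read as base coverage and divided by 42. Since coverage is not a count of reads, no count test was run. The authors also deposited a p-value and a score per transcript, ontology tables (p-value, fold and gene count per term) and motif tables (fold, gene counts and a corrected score); the score per transcript was not used. No per-sample column was left out.

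Genes with a mean of at least 10 (15717) were tested on log2(value + 1), so changes of low genes are understated, with limma 3.58.1 in R 4.3.3 (mean-variance trend, 4 residual degrees of freedom, two-sided, Benjamini-Hochberg over all genes); the script was tested on simulated data. GC content and length came from GENCODE M21 transcripts (98.2% of genes tested), and the correction was a spline of 5 degrees of freedom per library. Tables were joined with Python 3.11.15, pandas 2.3.3 and numpy 2.4.6. Promoters are from RefSeq GRCm38.p6; no coordinates were taken from the mm9 files. Named with values were the 8 members of smallest limma p, the 2 largest changes in each direction per class, Ptchd1, and the 2 smallest p among other assembly factors. Members, lists and the rule were chosen with earlier results of these data known. 1 member enters the counts and medians but is not reported singly here.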

Additional observations from a re-analysis of the deposited data

How the results depend on the processing

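Pseudocounts, filters on low values, transcript rows, rescaling and the trend of limma changed no direction of the group medians and no call. The correction for GC content and length moved the medians to -0.106 (all members and assembly genes) and -0.100 (accessory genes). It left 4 members lower without overlap, against 7.18% of all genes. Negative members went from 42 to 34 of 45, with 53.2% and 48.5% of all genes negative. Among the members named by the rule only Ndufaf1 changed direction, to 0.014. The cause was not tested. Library quality weights called 9 members lower and turned Ndufa1 to -0.069, and the authors' p-values called 12. Leaving out single libraries gave 0 to 1 members lower and 0 higher at the adjusted threshold, 40.0 to 42 negative, 18 to 29 lower without overlap, and medians from -0.244 to -0.161 (all), -0.265 to -0.149 (core), -0.263 to -0.161 (accessory) and -0.232 to -0.155 (assembly). The 1 call was Ndufc2, without mutant library 3, where 28 were lower without overlap (20.2% of all genes); without wild-type library 1 there were 29 (21.5% of all genes). Ndufa1 ranged from -0.135, without mutant library 1, to 0.158, without mutant library 3; without mutant library 1 it was reversed, and the accessory median was -0.161. Without mutant library 1 and wild-type library 2, whose GC trends were the strongest, 1 member was called lower and Ndufa1 was at -0.152. Without wild-type libraries 1 and 3, which leaves only wild-type library 2, with its strong GC trend, and is no check of stability, 31 were lower without overlap, against 33.6% of all genes, the assembly median was -0.308 and Ndufv3 was at 0.066. Omitting Ndufa4 and Ndufa4l2 or genes with shared sequence, both chosen after seeing the data, kept the direction. No paired analysis was possible because replicate numbers only follow the order of deposition. With 3 libraries per genotype, and no read counts, small changes of single genes were hard to resolve.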
